A study of Mus musculus with 4 samples.

Results

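The claudins described here are 10 genes, Cldn1, Cldn3, Cldn4, Cldn5, Cldn7, Cldn10, Cldn11, Cldn15, Cldn18 and Cldn23, taken by symbol from the 31055 features of a mouse lung single-cell count matrix. All 10 were found, and all 10 had at least 79 unique molecular identifiers (UMIs) in the cells kept. Cells came from lungs of mice of about 8 weeks, and a sort had removed cells with CD45, carried by leukocytes, or CD31, carried by endothelium. Every mouse carried a tamoxifen-activated Cre recombinase at one Gli1 allele (Gli1CreERT2/WT) and the mTmG reporter at one Rosa26 allele (Rosa26mTmG/WT), and every mouse had received tamoxifen. The labels disagree on the strain, so none is stated. The cells therefore come from a single genotype and treatment with no untreated or wild-type control, and the number of mice behind the 4 identically labelled samples is not given in the sources used here. No barcode names a sample, so the matrix counts as 1 sample without replicates and no test was made.

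Claudins are small proteins that cross the membrane several times and join with claudins of the neighbouring cell to form the strands of tight junctions. Sealing claudins close the space between cells, while pore-forming claudins let selected ions or water pass, so the mixture that a cell makes sets how leaky its junctions are. In the lung, the alveolar epithelium is known for claudins 3, 4, 7 and 18, and the mesothelium is the flat sheet of cells that covers the lung and lines the pleural space. The question taken up here is the junction make-up of each epithelial type and of the mesothelium.

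Positions are from GENCODE M21 on build mm10. Cldn18 (ENSMUSG00000032473) lies on chromosome 9 at 99689461 to 99717267 on the minus strand, and its annotated transcripts have 5 exons. Cldn4 (ENSMUSG00000047501, chromosome 5, 134945119 to 134946934, minus strand) and Cldn3 (ENSMUSG00000070473, chromosome 5, 134986214 to 134987472, plus strand) each have a single exon. They point away from each other, 39279 bp apart with 0 annotated genes between them. Cldn15 (ENSMUSG00000001739) is on the same chromosome at 136966616 to 136975858, plus strand. Cldn7 (ENSMUSG00000018569) is on chromosome 11 at 69964779 to 69967885, plus strand, and Cldn10 (ENSMUSG00000022132) on chromosome 14 at 118787908 to 118875489, plus strand. Cldn1 (ENSMUSG00000022512, 26356642 to 26371841, minus strand) and Cldn5 (ENSMUSG00000041378, 18776847 to 18778262, plus strand) are both on chromosome 16. Cldn11 (ENSMUSG00000037625) is on chromosome 3 at 31149920 to 31164324, plus strand, and Cldn23 (ENSMUSG00000055976) on chromosome 8 at 35824712 to 35826559, minus strand. On the opposite strand Wbscr25 overlaps Cldn3, Gm16004 overlaps Cldn18 and n-R5s51 overlaps Cldn10. The sources used here do not say that counting used the strand, so reads of these overlapping pairs could have been shared.

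RefSeq promoters of build GRCm38.p6 (mm10), from 250 bases before to 50 after a start, were matched by symbol for 9 of the 10 genes and gave 12 windows, because Cldn7, Cldn10 and Cldn18 each have a second start. Cldn23 had no entry. The 5 windows printed belong to Cldn3 and Cldn7, found in all 4 epithelial types, to Cldn4, found mostly in the airway types, to Cldn18 of the alveolus and to Cldn15 of the mesothelium. Capitals mark the E-box CACCTG, a letter pattern known to be bound by repressors of the Snai and Zeb families, and the GC box GGGCGG, each on either strand. All sequences run 5′ to 3′ on the strand of the gene, and no E-box match overlaps a GC box match.
Cldn3, chr5:134985964-134986263, plus strand: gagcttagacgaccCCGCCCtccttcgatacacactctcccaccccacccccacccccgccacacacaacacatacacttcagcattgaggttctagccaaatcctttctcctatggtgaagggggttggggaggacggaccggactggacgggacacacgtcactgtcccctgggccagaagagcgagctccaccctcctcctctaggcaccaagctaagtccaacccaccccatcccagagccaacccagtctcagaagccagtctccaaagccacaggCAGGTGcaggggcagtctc
Cldn4, chr5:134946885-134947184, minus strand: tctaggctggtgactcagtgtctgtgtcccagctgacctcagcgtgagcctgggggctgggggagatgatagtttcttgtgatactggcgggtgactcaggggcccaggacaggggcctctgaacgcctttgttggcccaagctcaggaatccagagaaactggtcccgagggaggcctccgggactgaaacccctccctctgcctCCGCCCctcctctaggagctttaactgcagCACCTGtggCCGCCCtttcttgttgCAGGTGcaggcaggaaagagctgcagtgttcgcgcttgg
Cldn7, second start, chr11:69965171-69965470, plus strand: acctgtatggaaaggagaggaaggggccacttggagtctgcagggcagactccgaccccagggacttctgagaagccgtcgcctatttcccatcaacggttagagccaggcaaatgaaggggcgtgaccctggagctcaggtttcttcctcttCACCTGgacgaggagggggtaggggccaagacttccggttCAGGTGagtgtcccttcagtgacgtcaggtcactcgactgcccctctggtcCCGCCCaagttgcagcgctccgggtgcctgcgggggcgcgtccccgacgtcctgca
Cldn18, upstream start, chr9:99717218-99717517, minus strand: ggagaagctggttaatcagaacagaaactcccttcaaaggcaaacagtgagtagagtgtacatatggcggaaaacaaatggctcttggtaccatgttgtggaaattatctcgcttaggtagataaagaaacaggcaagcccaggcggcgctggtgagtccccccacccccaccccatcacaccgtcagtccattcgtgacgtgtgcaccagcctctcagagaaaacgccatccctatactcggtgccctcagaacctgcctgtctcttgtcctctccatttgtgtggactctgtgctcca
Cldn15, chr5:136967619-136967918, plus strand: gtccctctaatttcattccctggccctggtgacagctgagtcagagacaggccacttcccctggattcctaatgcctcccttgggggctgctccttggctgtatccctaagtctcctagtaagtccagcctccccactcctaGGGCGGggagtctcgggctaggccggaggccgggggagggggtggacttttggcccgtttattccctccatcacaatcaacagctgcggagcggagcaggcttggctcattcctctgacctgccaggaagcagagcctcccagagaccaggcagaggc

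The E-box was found in 3 of the 12 windows, those of Cldn3 (1 match), Cldn4 (2) and the second start of Cldn7 (2), and 20.2% of all 32851 windows searched hold it. All 3 are among the windows printed. The first start of Cldn7, which is not printed, held neither the E-box nor the GC box. The GC box was found in 8 of 12 windows, against 35.7% of all windows. CAAGTG, a pattern of NKX2 factors, was in 5 of 12, against 13.6%, and neither AACCGGTT, the pattern of grainyhead-like factors (0.146% of all windows), nor TATAAA (13.6%) was in any of the 12. These are matches of letters, not measured binding sites.

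After filtering, 8933 cells with 76127432 UMIs remained, at a median of 7967 UMIs per cell, from 11118 barcodes, as many as the series states in cells. The 4 samples had 65156149 to 74901791 reads. Clusters were named from marker genes and are called X-like for that reason, and no claudin or other listed junction gene took part in the clustering. There were 1657 alveolar type 2-like cells (18.5% of cells), 238 ciliated-like, 187 alveolar type 1-like and 74 club or secretory-like cells, together 2156 epithelial cells. The 208 mesothelial-like cells (2.33%) are counted among 6510 mesenchymal cells, most of which were adventitial (3736) or alveolar (1960) fibroblast-like. The sort left 61 endothelial-like and 90 leukocyte-like cells, and 75 cells with genes of both alveolar type 2 cells and fibroblasts stayed unnamed. The defining markers were present in each class described: Ager, at 16398 counts per 1000000 UMIs (CPM), in alveolar type 1-like, Sftpb at 9590 CPM or more in both alveolar type 2-like clusters, Foxj1 at 514 in ciliated-like, Scgb1a1 at 514741 in club or secretory-like and Msln at 3962 in mesothelial-like cells. Marker genes of other classes were present too. Sftpc of type 2 cells was 17380 CPM in alveolar type 1-like cells, above Ager. Scgb1a1 was 86131 CPM in ciliated-like cells, above Foxj1, and the fibroblast gene Dcn 4571 in mesothelial-like cells, above Msln. Ager was 1360 CPM in alveolar type 2-like and Sftpc 7752 in club or secretory-like cells, below the markers named for those classes. Levels are CPM of the UMIs summed over a class, so a level is a share of the class's RNA. Each UMI is a tag near a transcript's 3′ end, so no length scaling applies, although capture can differ between genes. All intervals are 95% intervals for counting error only. Differences between the mice or samples are not in them.

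The members took 97.7% of the 56821 UMIs of all 33 claudin features, and the classes differed sharply in which members they held. Alveolar type 1-like cells had mostly Cldn18, alveolar type 2-like cells Cldn18 and Cldn3, ciliated-like cells Cldn3 and Cldn7, club or secretory-like cells Cldn3, Cldn10 and Cldn7, and mesothelial-like cells Cldn15 and Cldn10.

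**Figure D1:**
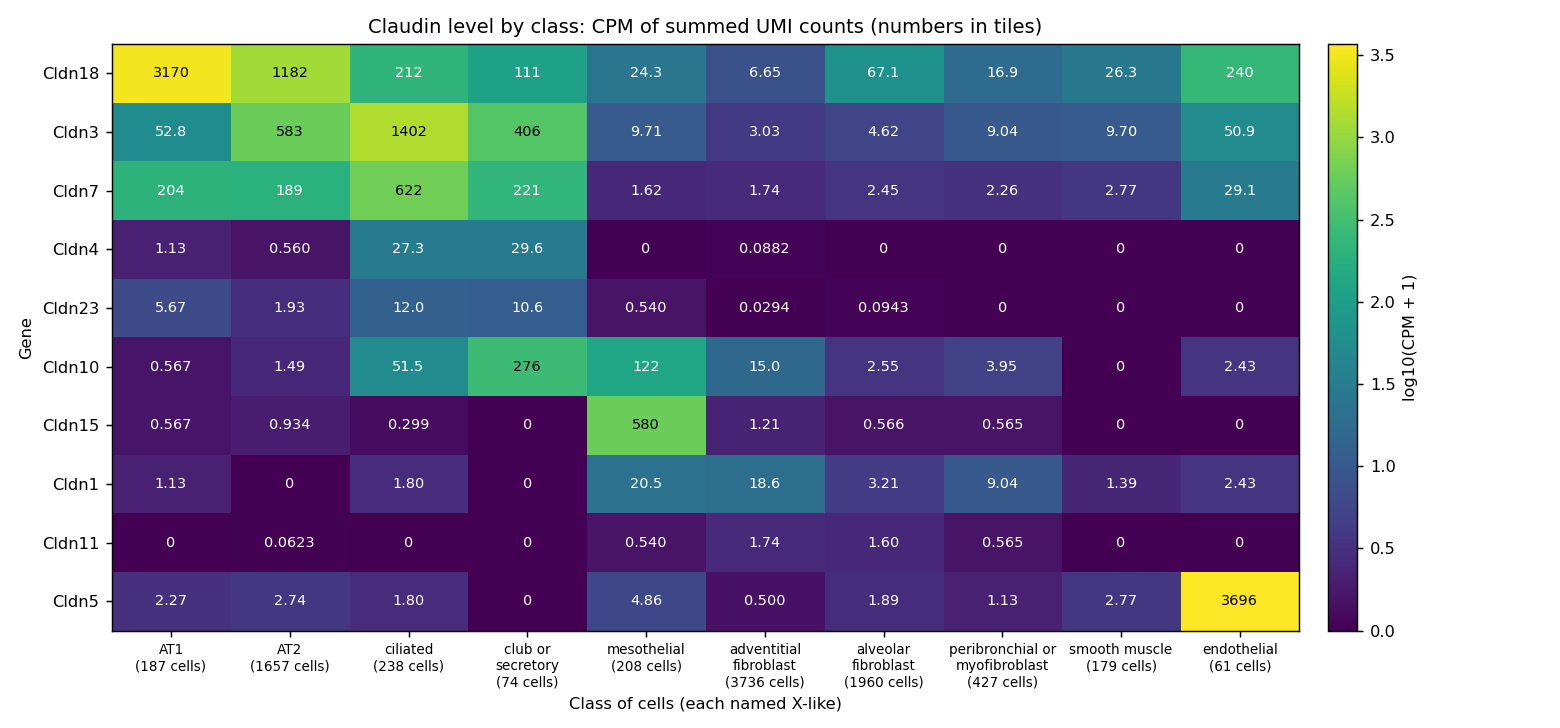
Level of each claudin (rows) in 10 classes (columns; AT1 and AT2 stand for alveolar type 1 and type 2), in CPM of summed UMIs as numbers, with the colour on a log10(CPM + 1) scale. Cldn18 reaches 3170 CPM in alveolar type 1-like cells, Cldn3 1402 in ciliated-like, Cldn15 580 in mesothelial-like and Cldn5 3696 in endothelial-like cells.

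Cldn18 encodes the claudin whose lung form is a known part of the alveolar barrier, and mice without it have leaky alveolar junctions. Its level was 3170 CPM in alveolar type 1-like cells (5588 UMIs, exact Poisson interval 3088 to 3255) and 1182 in alveolar type 2-like cells (18988 UMIs, 1166 to 1199). Ciliated-like cells had 212 CPM (197 to 229) and club or secretory-like cells 111 (97.8 to 125). Among the epithelial types, the alveolar cells thus stood well above the airway cells, with type 2-like cells 5.57-fold over ciliated-like cells (5.17 to 6.01). In alveolar type 1-like cells the median was 29 Cldn18 UMIs per cell and the highest 91, against a median of 11 and a highest of 72 in type 2-like cells. Ciliated-like cells were uneven, with a Cldn18 UMI in 131 of 238 cells, a median of 1 and up to 55 UMIs in a cell, and a single club or secretory-like cell held 80 of the 262 Cldn18 UMIs of its class.

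Outside the epithelium Cldn18 was 67.1 CPM in alveolar fibroblast-like, 26.3 in smooth muscle-like, 24.3 in mesothelial-like, 16.9 in peribronchial or myofibroblast-like and 6.65 in adventitial fibroblast-like cells. Endothelial-like cells had 240 CPM (99 UMIs). With called doublets kept, Cldn18 was 123 CPM in smooth muscle-like, 56.5 in mesothelial-like and 56.2 in alveolar fibroblast-like cells, so these levels and their order depended on doublet removal. Droplets can hold RNA set free by other cells, so the alveolar genes Ager (type 1) and Sftpc (type 2) were read beside it. Alveolar over adventitial fibroblast-like cells, Cldn18 was 10.1-fold (8.68 to 11.8), Ager 8.68-fold (7.81 to 9.67) and Sftpc 1.56-fold (1.52 to 1.60). Per 100 Ager UMIs there were 55.0 Cldn18 UMIs in alveolar fibroblast-like and 47.3 in adventitial fibroblast-like cells, with 58.5 in smooth muscle-like, 52.6 in peribronchial or myofibroblast-like, 45.8 in endothelial-like, 43.6 in leukocyte-like and 26.2 in mesothelial-like cells. The value was 364 in ciliated-like cells, 19.3 in alveolar type 1-like and 86.9 in alveolar type 2-like cells. In club or secretory-like cells it was 59.8, near the smooth muscle-like value. Per 1000 Sftpc UMIs there were 108 Cldn18 UMIs in ciliated-like cells, against 182 in alveolar type 1-like and 67.3 in alveolar fibroblast-like cells. The other classes named here had 3.54 to 20.5. Ciliated-like cells were thus highest per Ager UMI but not per Sftpc UMI. The part of free RNA in the stromal, the club or secretory-like and the ciliated-like Cldn18 was not tested.

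Cldn3, a sealing claudin of many epithelia, was 1402 CPM in ciliated-like cells (4682 UMIs, 1362 to 1443), 583 in alveolar type 2-like (9364 UMIs, 571 to 595), 406 in club or secretory-like (959 UMIs, 380 to 432) and 52.8 in alveolar type 1-like cells (93 UMIs, 42.6 to 64.6). The interval of each step in that order excluded 1: ciliated-like over alveolar type 2-like cells was 2.40-fold (2.32 to 2.49), alveolar type 2-like over club or secretory-like 1.44-fold (1.34 to 1.54), and club or secretory-like over alveolar type 1-like 7.69-fold (6.21 to 9.62). With CPM computed without abundant genes, those that hold at least 1% of UMIs in a class, club or secretory-like cells (1022 CPM) lay above alveolar type 2-like cells (829), so the order of that pair depended on the scaling. Most of the low alveolar type 1-like level came from few cells. In 14 of the 187 cells Sftpc held at least 5% of UMIs, and these 14 had 72 of the 93 Cldn3 UMIs (264 CPM), while the other 173 cells had 14.1 CPM (8.73 to 21.6). Per 1000 Sftpc UMIs there were 3.036 Cldn3 UMIs in alveolar type 1-like and 3.045 in alveolar type 2-like cells. The part of type 2 RNA in the alveolar type 1-like Cldn3 level was not tested. Mesothelial-like cells had 9.71 CPM (18 UMIs) and the fibroblast-like classes 3.03 to 9.04.

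Cldn7, which is found in the lateral membrane of many epithelia as well as in tight junctions, was 622 CPM in ciliated-like cells (2076 UMIs, 595 to 649). The other 3 epithelial types had 221 in club or secretory-like (202 to 241), 204 in alveolar type 1-like (183 to 226) and 189 in alveolar type 2-like cells (182 to 196). Club or secretory-like over alveolar type 1-like cells the ratio was 1.08, with an interval of 0.946 to 1.24 that includes 1. Without abundant genes the levels were 557, 236 and 269 CPM in the same order of types, so club or secretory-like cells were close to the alveolar types only with all UMIs in the scaling. Unlike Cldn3, Cldn7 was as high in alveolar type 1-like cells without the 14 Sftpc-rich cells, at 201 CPM. It was 1.62 CPM in mesothelial-like cells, on 3 UMIs.

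Cldn4, a sealing claudin known to increase in injured alveolar epithelium, was low and lay mostly in the airway. It was 29.6 CPM in club or secretory-like (70 UMIs, 23.1 to 37.4) and 27.3 in ciliated-like cells (91 UMIs, 21.9 to 33.5), a ratio of 1.09 (0.784 to 1.501). Alveolar type 2-like cells had 9 UMIs in 1657 cells (0.560 CPM, 0.256 to 1.06) and alveolar type 1-like cells 2 UMIs. The airway UMIs were unevenly spread, since 1 ciliated-like cell held 21 of 91 and 1 club or secretory-like cell 16 of 70. Mesothelial-like cells had 0 Cldn4 UMIs, which allows up to 1.62 CPM at 3 UMIs over the class.

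Cldn23 was low throughout, at 11.98 CPM in ciliated-like (40 UMIs, 8.56 to 16.3), 10.6 in club or secretory-like (25 UMIs, 6.85 to 15.6), 5.67 in alveolar type 1-like (10 UMIs, 2.72 to 10.4) and 1.93 in alveolar type 2-like cells (31 UMIs, 1.31 to 2.74). The intervals of club or secretory-like over ciliated-like and over alveolar type 1-like cells (1.86-fold, 0.865 to 4.35) included 1. Without abundant genes Cldn23 was 26.7 CPM in club or secretory-like, 13.8 in ciliated-like and 6.58 in alveolar type 1-like cells. Mesenchymal cells held 3 Cldn23 UMIs in all, 1 of them in a mesothelial-like cell.

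Cldn10, which is made in forms that conduct either anions or cations, crossed the border between epithelium and stroma. It was 276 CPM in club or secretory-like cells (653 UMIs, 255 to 298), 122 in mesothelial-like (227 UMIs, 107 to 139), 51.5 in ciliated-like (172 UMIs, 44.1 to 59.8) and 14.97 in adventitial fibroblast-like cells (509 UMIs, 13.7 to 16.3). Alveolar type 2-like cells had 1.49 CPM and alveolar type 1-like cells a single UMI. The ciliated-like level came almost wholly from 13 cells in which Scgb1a1 held at least 5% of UMIs. Those 13 had 155 of the 172 Cldn10 UMIs (257 CPM, 218 to 301), and the other 225 ciliated-like cells had 6.21 CPM (3.62 to 9.95). In the 13 cells Foxj1, a ciliated cell transcription factor, was 179 CPM and Scgb1a1 459067 CPM. Whether each was a mixture of 2 cells was not tested. The counts do not tell the starts of Cldn10 apart, so which of its forms was made is not known from them.

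Cldn15, known for the sodium-permeable junctions of the small intestine, marked the mesothelium. It was 580 CPM in mesothelial-like cells (1075 UMIs, 546 to 616), and no other class passed 13.8 CPM. That next value, in leukocyte-like cells, rested on 1 cell, which held all 10 UMIs of the class. Adventitial fibroblast-like cells had 1.21 CPM (41 UMIs), alveolar type 2-like 0.934 (15 UMIs), and club or secretory-like, smooth muscle-like and endothelial-like cells 0 UMIs. Mesothelial-like over adventitial fibroblast-like cells the ratio was 481 (352 to 674).

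Cldn1, a claudin of the skin's water barrier, was, like Cldn10, found in both mesothelial-like and adventitial fibroblast-like cells. Its level was 20.5 CPM in mesothelial-like (38 UMIs, 14.5 to 28.1) and 18.6 in adventitial fibroblast-like cells (633 UMIs, 17.2 to 20.1), a ratio of 1.10 (0.772 to 1.53). Alveolar fibroblast-like cells had 3.21 CPM, and the adventitial level was 5.81-fold over theirs (4.11 to 8.46). Peribronchial or myofibroblast-like cells had 9.04 CPM (16 UMIs). In the finer clustering the levels were 11.9 CPM in alveolar and 17.5 in adventitial fibroblast-like cells, so the size of that gap depended on which class a group of cells was given. No Cldn1 UMI was seen in the 1657 alveolar type 2-like cells, which allows a share of up to 0.181% of cells with a UMI, and none in club or secretory-like cells. All 6 Cldn1 UMIs of ciliated-like cells were in 1 cell.

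Cldn11, which forms the junctions of myelin and of Sertoli cells, had 79 UMIs in all, 59 in adventitial (1.74 CPM, 1.32 to 2.24) and 17 in alveolar fibroblast-like cells (1.60 CPM, 0.934 to 2.57), a ratio of 1.08 (0.623 to 1.98). The alveolar fibroblast-like level ran from 0.720 CPM with doublets kept to 2.95 with junction genes allowed in clustering. Cldn5, the main sealing claudin of endothelium, was 3696 CPM in the endothelial-like cells that the CD31 gate left (1524 UMIs, 3513 to 3886), with at least 1 UMI in 60 of 61 cells. In other named classes it stayed at or under 4.86 CPM, the mesothelial-like value (9 UMIs), and in alveolar type 2-like cells 1 cell held 11 of its 44 UMIs.

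As shares of all claudin UMIs of a class, alveolar type 1-like and mesothelial-like cells were led by 1 claudin, while club or secretory-like cells had the most even mixture of the 4 epithelial types. Cldn18 made up 91.6% of claudin UMIs in alveolar type 1-like cells (Clopper-Pearson interval 90.9 to 92.3%), followed by Cldn7 with 5.88% and Cldn3 with 1.52%. In alveolar type 2-like cells the shares were 59.7% for Cldn18, 29.4% for Cldn3 and 9.55% for Cldn7. Ciliated-like cells were about as mixed as alveolar type 2-like cells but in another order, with 59.3% Cldn3, 26.3% Cldn7, 8.98% Cldn18 and 2.18% Cldn10. Club or secretory-like cells had no claudin above 37.5%, the Cldn3 share, with 25.5% Cldn10, 20.4% Cldn7 and 10.2% Cldn18. Mesothelial-like cells had 74.1% Cldn15 (71.8 to 76.4%), 15.7% Cldn10, 3.10% Cldn18 and 2.62% Cldn1, and endothelial-like cells 91.5% Cldn5. The summed claudin level was 3461 CPM in alveolar type 1-like, 2365 in ciliated-like, 1981 in alveolar type 2-like, 1082 in club or secretory-like and 782 in mesothelial-like cells, against 63.3 in adventitial fibroblast-like cells.

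**Figure D2:**
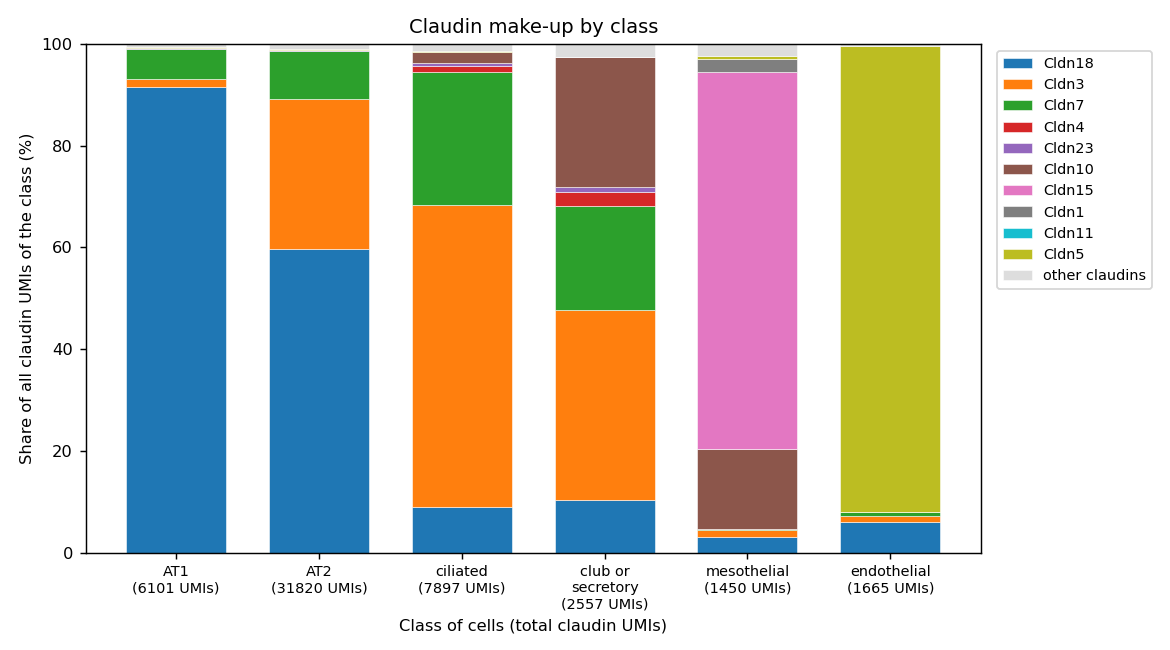
Share of each claudin (colours) in all claudin UMIs of a class, in percent, for 6 classes (AT1 and AT2 stand for alveolar type 1 and type 2) with the number of claudin UMIs under each bar. A single claudin fills over 90% of the alveolar type 1-like and endothelial-like bars, while the largest share in club or secretory-like cells is 37.5%.

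Per cell, the leading claudins were found in nearly every cell of their class. Cldn18 had a UMI in 98.9% of alveolar type 1-like and 99.3% of alveolar type 2-like cells, at medians of 8122 and 9420 UMIs per cell. In adventitial fibroblast-like cells the share was 3.85% at a median of 8802.5 UMIs. After each cell was thinned to 2000 UMIs these shares were 100%, 88.2% and 1.26%, with 24, 8 and 14 shallower cells left out. Cldn3 was in 97.7% of alveolar type 2-like and 13.9% of alveolar type 1-like cells (66.8% and 6.13% thinned), against 2.17% of adventitial fibroblast-like cells (0.510% thinned). Cldn3 and Cldn18 were seen together in 97.1% of alveolar type 2-like cells and 13.9% of alveolar type 1-like cells.

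In the airway, Cldn3 had a UMI in 100% of ciliated-like cells, at a median of 11237.5 UMIs per cell, and Cldn7 in 98.3%, and thinned the shares were 90.7% and 70.0% with 1 cell left out. Cldn18 was in 55.0% of ciliated-like cells (26.6% thinned). Club or secretory-like cells were deeper, with a median of 30096.5 UMIs, so that Cldn10 was in 97.3% of them at full depth but in 39.2% thinned, and Cldn4 in 35.1% and 4.05%. For Cldn10, alveolar type 2-like cells gave 1.39%, and 7 of 1649 cells once thinned. In mesothelial-like cells, at a median of 8651.5 UMIs, Cldn15 was in 95.7% of cells (64.6% thinned, 2 cells left out), against 0.905% of alveolar type 2-like cells (0.121% thinned). Cldn10 was in 52.9% of mesothelial-like cells (19.9% thinned), and 106 of these 110 cells also had Cldn15. Of the mesothelial-like cells without Cldn10, 93 had Cldn15 and 5 did not, so Cldn15 was about as common with Cldn10 as without it. Cldn1 was in 12.98% of mesothelial-like cells and 12.9% of adventitial fibroblast-like cells (2.43% and 3.39% thinned).

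**Figure D3:**
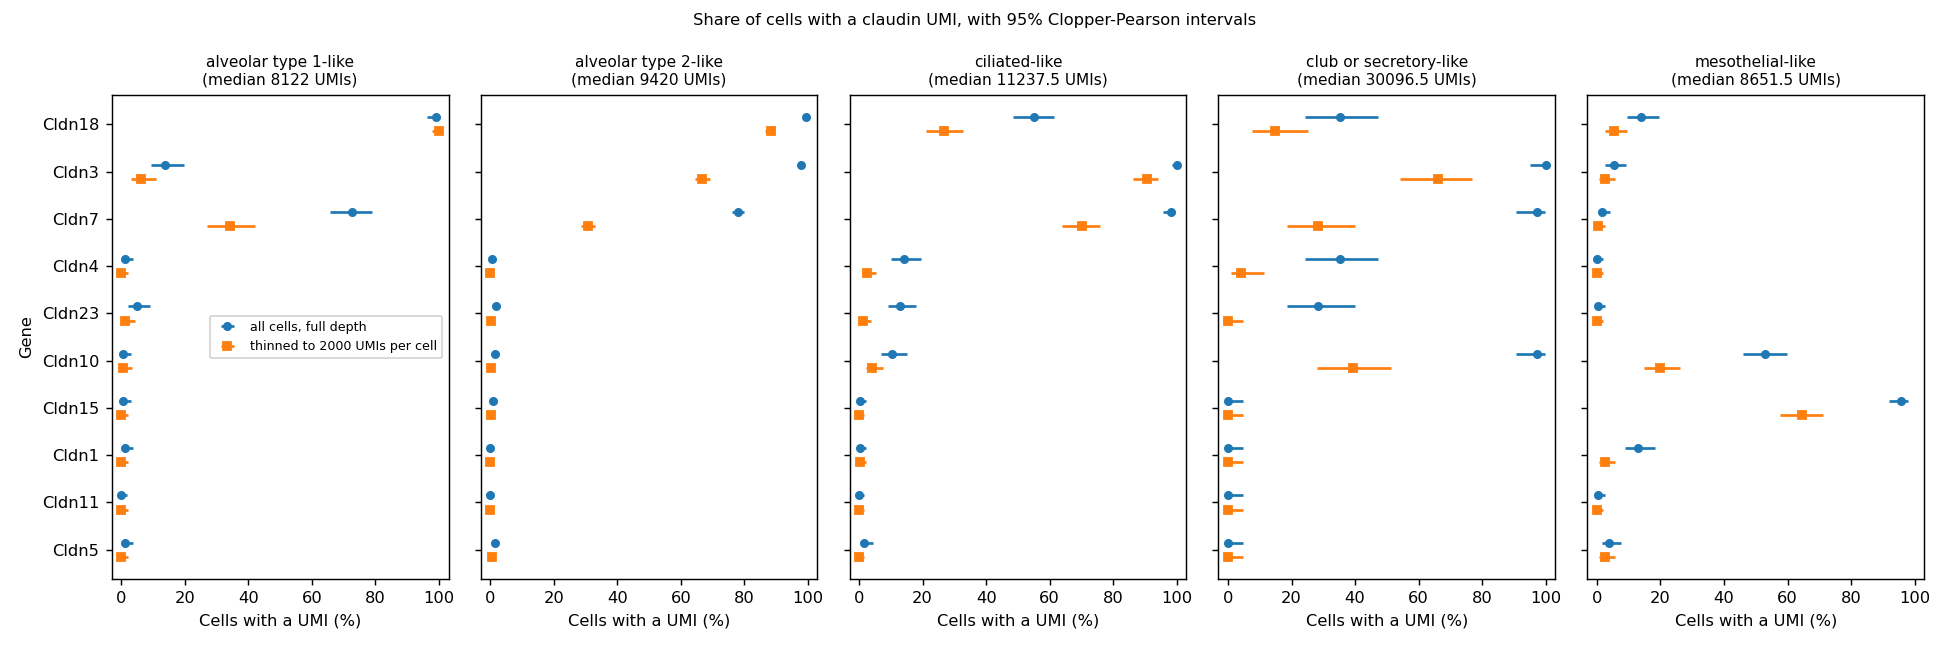
Share of cells with at least 1 UMI of each claudin in the epithelial and mesothelial-like classes, in percent, at full depth (circles) and after thinning to 2000 UMIs per cell (squares), with Clopper-Pearson 95% intervals. Cldn15 is near 0 in each epithelial class and at 95.7% in mesothelial-like cells.

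Alveolar type 1-like over alveolar type 2-like cells, Cldn18 was 2.68-fold (2.60 to 2.76), Cldn7 1.08-fold with an interval that includes 1 (0.963 to 1.20) and Cldn3 was 0.0905-fold (0.0730 to 0.111). The Cldn3 ratio was 0.0242 without the 14 Sftpc-rich cells and 0.203 when cells were clustered more finely. Cldn23 was 2.94-fold (1.29 to 6.15), on 10 UMIs in alveolar type 1-like cells. Of the 5 members with at least 30 UMIs over both classes, 2 had a ratio of 2 or more and 1 a ratio of 0.5 or less. Among all 11221 features counted in the same way, 27.5% had 2 or more and 12.6% had 0.5 or less, and the median ratio was 1.37, above the members' median of 1.08. Without abundant genes, the median of all features moved by -0.29 on the log2 scale and the split of all features became 18.7% and 16.2%. Cldn18 was then 2.19-fold and Cldn7 0.878-fold, so the direction for Cldn7 depended on the scaling.

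Club or secretory-like over ciliated-like cells, Cldn10 was 5.36-fold (4.53 to 6.38), and 44.5-fold when the 13 Scgb1a1-rich ciliated-like cells were left out. Cldn3 was 0.289-fold (0.270 to 0.310), Cldn7 0.355-fold (0.322 to 0.391), Cldn18 0.522-fold (0.451 to 0.602), Cldn23 0.883-fold (0.513 to 1.49) and Cldn4 1.09-fold. Of 6 members counted, 1 was at 2 or more, against 2.99% of all features, and 2 were at 0.5 or less, against 70.1% of all features. Scgb1a1 alone was 514741 CPM in club or secretory-like cells, so most other genes had low ratios and the median of all features was 0.361. Scaled without abundant genes, which moved that median by 1.13 on the log2 scale, the split of all features was 10.5% and 27.3%. The members were then 2 and 0, with Cldn10 at 11.7, Cldn4 at 2.37, Cldn3 at 0.631 and Cldn7 at 0.775, and Cldn18 (1.14) and Cldn23 (1.93) turned above 1.

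Epithelial over mesenchymal cells, 7 of 10 members were at 2 or more and 3 at 0.5 or less, against 19.4% and 25.8% of all 14536 features. Cldn3 was 159-fold (139 to 184), Cldn7 132-fold (108 to 163), Cldn4 121-fold on 3 mesenchymal UMIs (40.7 to 593), Cldn23 74.6-fold on 3 (24.8 to 368) and Cldn18 51.3-fold (48.2 to 54.6). Cldn10 was 2.33-fold (2.11 to 2.57), but 0.881-fold when each cell weighed the same. Cldn5 was 2.19-fold (1.47 to 3.27) at levels of 2.30 and 1.05 CPM. Low were Cldn15 (0.0320-fold, 0.0186 to 0.0514), Cldn11 (0.0271-fold on 1 epithelial UMI, 0.000677 to 0.155) and Cldn1 (0.0234-fold, 0.0100 to 0.0463). The mesenchymal set includes the mesothelial-like cells, which held 1075 of its 1123 Cldn15 UMIs, so the low Cldn15 ratio rested mostly on them. Cldn15 was 0.723 CPM in epithelial, 1.21 in adventitial fibroblast-like and 0.566 in alveolar fibroblast-like cells. Without abundant genes the split of all features was 24.1% and 21.1%, with the median moved by 0.34 on the log2 scale, and the members stayed at 7 and 3.

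Mesothelial-like over other mesenchymal cells, Cldn15 was 578-fold (433 to 789) and Cldn10 10.8-fold (9.20 to 12.6). Cldn5 was 5.40-fold (2.31 to 11.2) and Cldn3 2.55-fold (1.48 to 4.15), on 9 and 18 mesothelial-like UMIs. These 4 of 8 members counted were at 2 or more, against 15.2% of all 13234 features, and 1, Cldn11 with a single UMI (0.335-fold, 0.00838 to 1.92), was at 0.5 or less, against 19.0%. Cldn1 (1.43-fold, 1.004 to 1.98), Cldn18 (1.15-fold, 0.836 to 1.56) and Cldn7 (0.832-fold, 0.169 to 2.51) lay between. The alveolar genes Sftpc and Ager were 1185 and 92.8 CPM in mesothelial-like cells, and their part in the Cldn3 and Cldn18 values there was not tested.

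Mesothelial-like over epithelial cells, 4 of 9 members were at 2 or more and 5 at 0.5 or less, against 20.9% and 20.2% of all 12710 features. High were Cldn15 (803-fold, 499 to 1383), Cldn1 (60.3-fold, 27.7 to 150), Cldn10 (3.39-fold, 2.92 to 3.93) and Cldn5 (2.12-fold, 0.918 to 4.32, an interval that includes 1). Low were Cldn7 (0.00635-fold on 3 UMIs, 0.00131 to 0.0186), Cldn3 (0.0151-fold, 0.00897 to 0.0239), Cldn18 (0.0224-fold, 0.0163 to 0.0299) and Cldn23 (0.120-fold on 1 UMI, 0.00300 to 0.682). Cldn4, with 0 mesothelial-like UMIs, was at most 0.221-fold, taking 3 UMIs over the class as the floor. Without abundant genes the split of all features was 14.8% and 24.5%, the median moved by -0.36 on the log2 scale, and 3 members were high. Cldn10 was 11.5-fold when each cell weighed the same.

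**Figure D4:**
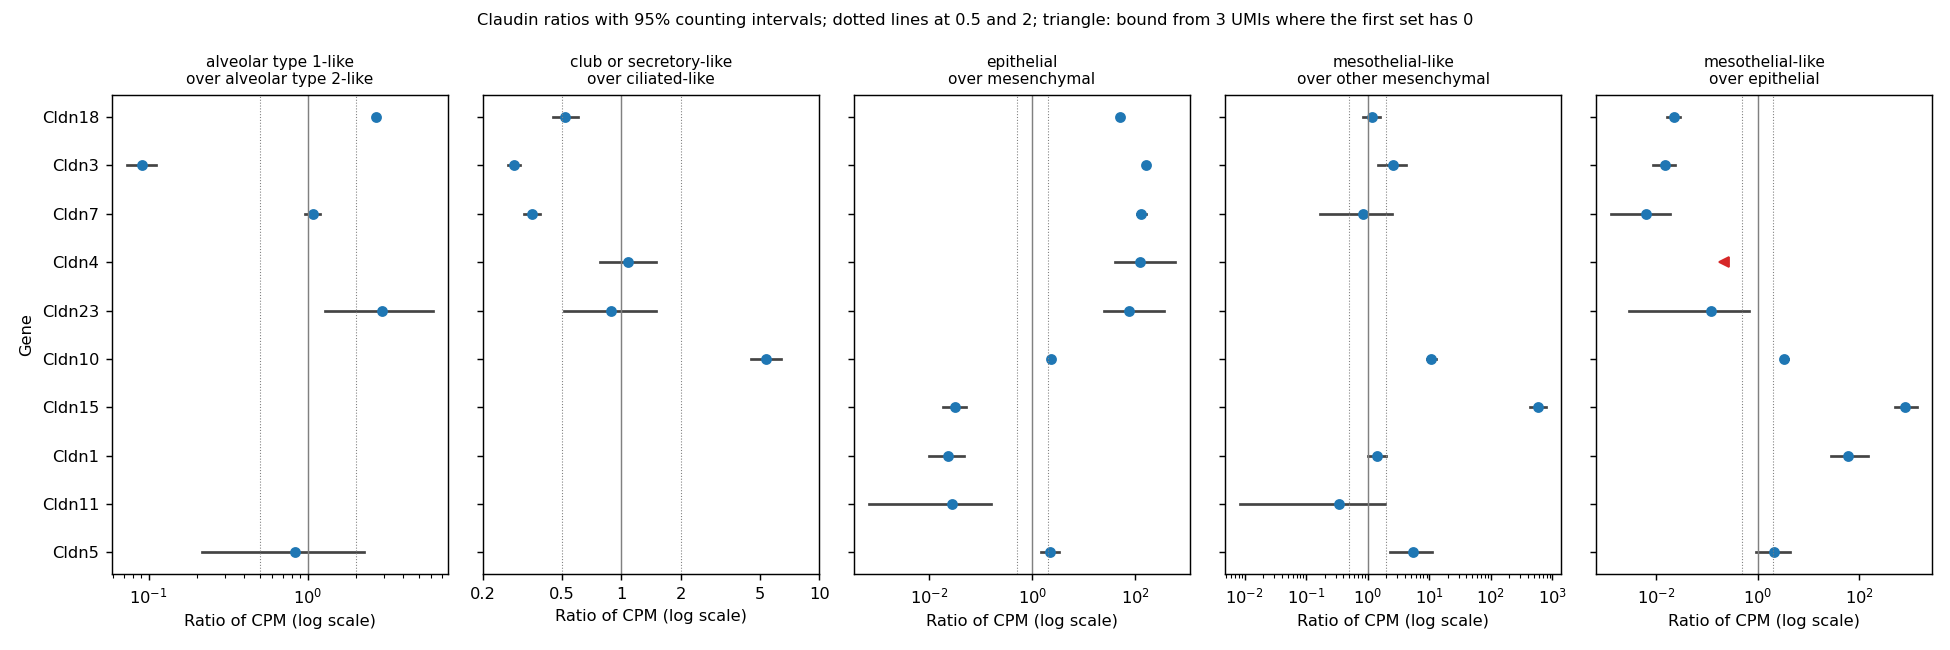
Ratio of CPM for each claudin with at least 30 UMIs over both sets in the 5 comparisons, on log axes that differ between panels, with 95% counting intervals as lines. Cldn15 lies at 578 and 803 for mesothelial-like cells over other mesenchymal and over epithelial cells, and Cldn3 at 0.0905 for alveolar type 1-like over type 2-like cells.

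Within classes, alveolar type 2-like cells fell into cluster 0 (628 cells, led by Lrg1 and Scd1) and cluster 4 (1029 cells, led by Chia1 and Areg). All 3 leading claudins were slightly higher in cluster 4, with Cldn18 at 1262 against 1056 CPM (1.20-fold, 1.16 to 1.23), Cldn3 at 632 against 505 (1.25-fold, 1.20 to 1.31) and Cldn7 at 206 against 162 (1.27-fold, 1.18 to 1.38). These ratios are given without the ratio over all features or a scaling without abundant genes. Whether they differ from the general shift between the clusters was not tested. The listed genes of the transitional state between alveolar type 2 and type 1 cells are given in full. Cluster 4 had more Krt8 (460 against 195 CPM), Krt18 (437 against 215), Krt7 (117 against 53.3), Krt19 (95.02 against 31.7), Sfn (68.6 against 24.7), Lgals3 (258 against 61.9), Itgb6 (11.3 against 4.03), Areg (407 against 84.5), Hbegf (130 against 53.8) and Cdkn1a (122 against 61.2). Areg is among the genes that lead cluster 4, and no comparison with other genes was made for this list. Cldn4 was 0.912 CPM in cluster 4 (9 UMIs) and had 0 UMIs in cluster 0, where the upper 95% limit was 0.596 CPM.

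In a finer clustering, the mesothelial-like cells fell into 182 cells led by Msln and Upk3b and 26 cells led by Lgals7 and Wt1. Cldn15 was 591 CPM in the larger and 489 in the smaller group (0.828-fold, 0.664 to 1.02). Cldn10 was 91.1 in the larger and 387 CPM in the smaller group (4.25-fold, 3.18 to 5.63), and Cldn1 17.5 and 45.8 CPM (2.62-fold, 1.09 to 5.68, on 9 UMIs). The fibroblast gene Dcn was 2771 CPM in the larger and 19771 in the smaller group, and its part in these differences was not tested. Among adventitial fibroblast-like clusters, Cldn1 ran from 4.89 CPM in cluster 2 (led by Ptx3 and Ebf2) to 45.5 in cluster 10 (led by Lamc3 and Bmp7). Cldn10 ran from 1.57 CPM in cluster 7 (led by Bpifa2 and Fmod) to 28.8 in cluster 10, and cluster 5 (led by Dio2 and Cytl1) had 22.4. In the finer clustering most of the 708 cells of cluster 10 fell into a group of 284 cells led by Notum and Bmp7, all from cluster 10, and a group of 368 cells, 336 of them from cluster 10, with Lamc3 and Pla2g7 among its leading genes. The marker lists named the second group alveolar fibroblast, so its class was not stable. Cldn10 was 56.6 CPM in the first and 4.604 in the second group (12.3-fold, 7.09 to 23.0), whereas Cldn1 was 48.3 and 42.8 (1.13-fold, 0.876 to 1.46). Both clusterings were chosen on these same cells, so the groups are descriptions.

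**Figure D5:**
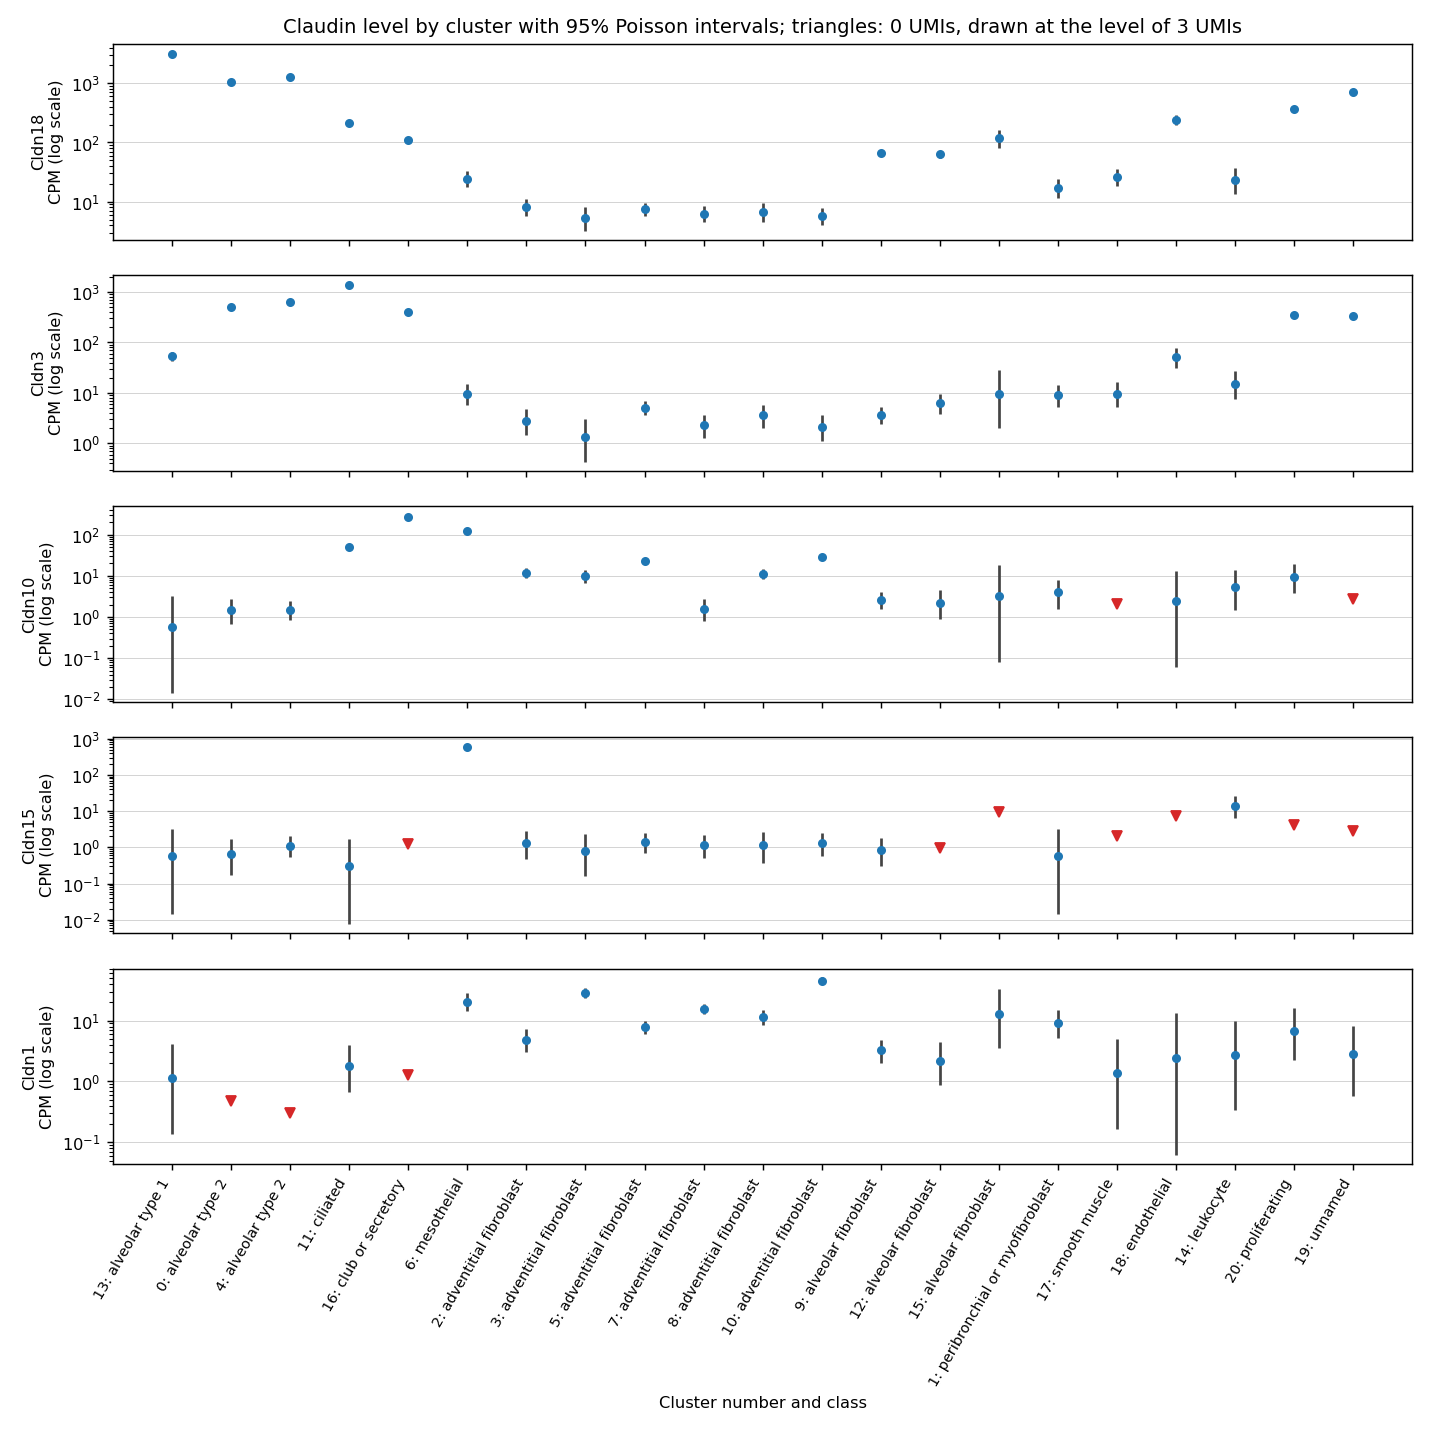
CPM (log scale) of Cldn18, Cldn3, Cldn10, Cldn15 and Cldn1 in each of the 21 clusters, ordered by class, with exact Poisson 95% intervals; triangles mark clusters with 0 UMIs at the level of 3 UMIs. Cldn15 stands out in cluster 6, the mesothelial-like cells, and Cldn1 is highest in cluster 10.

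Over the 21 clusters, the log2(CPM + 1) levels of Cldn3 and Cldn7 were correlated with Pearson's r of 0.956, Cldn7 and Cldn18 with 0.847 and Cldn3 and Cldn18 with 0.810. Only members with 200 or more UMIs were compared in this way, which leaves out Cldn4, Cldn11 and Cldn23. Among those compared, Cldn10 followed no other closely (r of 0.411 with Cldn15 at the most). The clusters share a library and their values are not independent, so these are descriptions. Among 9974 genes outside the claudins, those most like Cldn15 in pattern were Lrrn4 (0.980), Pkhd1l1 (0.965) and Lgals2 (0.956), and Lrrn4 was also a mesothelial marker. The nearest to Cldn18 were Mal2 (0.964), Ager (0.957) and Bend7 (0.953), to Cldn3 Wfdc2 (0.975), C2cd4b and Aldh1a7 (both 0.973), and to Cldn7 St14 (0.973), Wfdc2 (0.972) and Irx5 (0.970). Cldn5 was nearest to Ctla2a (0.958), Hbb-bs (0.955) and Hba-a1 (0.943), the last pair being haemoglobin genes that also led the endothelial-like cluster. Cldn10 was nearest to Lypd2 (0.696), Anxa8 (0.684) and Scgb3a2 (0.664), and Cldn1 to Tshz3 (0.886), Tgfb3 (0.885) and Tpcn1 (0.882).

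Other genes, 61 in lists, cover occludin-type proteins, scaffolds, polarity proteins, immunoglobulin-type proteins, adherens junctions, desmosomes and transcription factors. The 11 transcription factors are not junction parts but are counted among the junction genes below. In epithelial over mesenchymal cells they were 5 of the 39 high and 5 of the 12 low genes. In mesothelial-like over other mesenchymal cells they were 1 of the 28 high and 4 of the 8 low genes. Alveolar type 1-like over type 2-like cells, 27 of 51 counted genes were at 2 or more and 8 at 0.5 or less, with a median ratio of 2.01 against 1.37 for all features, and 20 and 10 without abundant genes. Of all features, 27.5% and 12.6% passed these ratios, and 18.7% and 16.2% without abundant genes. Among the highest were Cdh11 (23.9-fold), the polarity gene Pard6b (13.3) and Nectin3 (454 against 50.5 CPM), and the lowest were Ehf (0.135), Nectin1 (0.152), Nectin4 (0.201) and Tjp3 (0.225). Cdh11 was 542 CPM in alveolar and 305 in adventitial fibroblast-like cells, and the alveolar fibroblast marker list summed to 4694 CPM over 9 of 9 genes in alveolar type 1-like cells. Its part in the Cdh11 value was not tested. Ocln, which encodes occludin, was 112 CPM in alveolar type 1-like and 20.4 in type 2-like cells. Ciliated-like cells had 81.5 CPM of Ocln at a Cldn18 level of 212 CPM, so over these classes Ocln did not follow Cldn18.

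Club or secretory-like over ciliated-like cells, 2 of 48 junction genes were at 2 or more and 31 at 0.5 or less, with a median of 0.351, near the 0.361 of all features, of which 2.99% and 70.1% passed these ratios. Without abundant genes the junction counts were 4 and 6 and their median 0.766. The highest were Ehf (2.46-fold), Cgnl1 (1.25), Klf5 (1.05) and Jup (0.771), and the lowest Magi2 (0.140), Magi1 (0.162), Ocln (0.166) and Dsg2 (0.178). Epithelial over mesenchymal cells, 39 of 58 were at 2 or more and 12 at 0.5 or less, with a median of 5.88 against 0.866 for all features. The shares of all features at these ratios were 19.4% and 25.8%. Nectin4 (225-fold), Epcam (179), Elf3 (147) and Ehf (122) were highest, Epcam being known to bind Cldn7. The lowest were Twist1 (0.0165), Cdh11 (0.0315), Zeb2 (0.0340) and Jam3 (0.0388).

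Mesothelial-like cells held adhesion and scaffold genes beside Cldn15 and Cldn10. Over other mesenchymal cells, 28 of 46 junction genes were at 2 or more and 8 at 0.5 or less, with a median of 3.36 against 1.03 for all features. The shares of all features at these ratios were 15.2% and 19.0%. The highest were the adhesion protein genes Cxadr (241-fold), Lsr (167) and Esam (73.8) and the scaffold gene Cgn (102), and the lowest Zeb2 (0.0422), Jam2 (0.0820), Snai2 (0.152) and Snai1 (0.299). Over epithelial cells, 14 of 56 were at 2 or more and 21 at 0.5 or less, with a median of 0.869 against 1.15 for all features, and 11 and 25 without abundant genes. Of all features, 20.9% and 20.2% passed these ratios, and 14.8% and 24.5% without abundant genes. There the highest were Ildr2 (228-fold, 349 CPM), Mpdz (40.7), Cdh11 (22.2) and Zeb1 (13.3), while Elf3, Ehf, Ildr1 and Nectin4 had 0 mesothelial-like UMIs. All 3 occludin-type genes were at 0.5 or less over epithelial cells, with Ocln at 2.16 CPM in mesothelial-like cells against 35.2 in epithelial cells. The scaffold gene Tjp1 was 73.4 CPM in mesothelial-like and 75.8 in epithelial cells. The repressor gene Zeb2 was 10.8 CPM in mesothelial-like, 8.37 in epithelial and 246 in all mesenchymal cells. Zeb1 was 46.9 CPM in mesothelial-like and 3.53 in epithelial cells.

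Of the 23 claudin features that are not members, 10 had a UMI. Cldn12 was spread widely (655 UMIs), from 4.14 CPM in leukocyte-like to 18.7 in alveolar type 1-like cells, and Cldn34c1 (375 UMIs) was 7.07 CPM in alveolar fibroblast-like cells and 12.1 in endothelial-like cells, the latter on 5 UMIs. Cldn8 was 20.7 CPM in ciliated-like cells (69 of 130 UMIs), 7.06-fold over alveolar type 2-like cells (4.80 to 10.5). Cldn22 was 17.3 CPM in club or secretory-like cells (41 of 64 UMIs), with 1 UMI in ciliated-like cells (57.9-fold, 9.83 to 2343). Cldn2 had 56 UMIs, 43 of them in adventitial fibroblast-like cells. Cldn19, Cldn6, Cldn20, Cldn9 and Cldn13 had 8 UMIs or fewer each.

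The authors' deposited cluster table, made from a clustering of their own, places several members alike by mean count per cell. In the authors' deposited table Cldn15 is highest in their cluster 15 (3.95), where the mesothelial gene Msln is 26.7, and Cldn18 in their cluster 16 (21.2), where Ager is 105. Cldn3 is highest there in cluster 13 (10.1, with Tppp3, a ciliated cell gene, at 20.03), Cldn10 in cluster 8 (1.62, with Scgb1a1 at 3184) and Cldn5 in cluster 6 (2.72), all values from the authors' deposited table. For Cldn4 the authors' deposited table has cluster 13 (0.178) above cluster 8 (0.136), the reverse of the order of ciliated-like and club or secretory-like cells by CPM, whose ratio interval included 1.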

How the data were processed

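Single-cell 3′ RNA libraries of 4 identically labelled samples were deposited as 1 matrix of raw UMI counts. Per the file headers and the submitters' processing notes, the authors made these counts with Cell Ranger 3.0.0 on build mm10. A second deposited table, from clusters of the authors' own, holds, per its header, mean counts per cell (scaling not stated), log2 fold changes and adjusted p-values. The read share in cells was deposited as a percent in the run summary, and reads per sample were summed from the deposited demultiplexing table.

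Cells with under 500 genes (1296) or over 10% mitochondrial UMIs (1545) were dropped, and Scrublet (in scanpy 1.11.5, expected rate 0.08, seed 0) removed 458 doublets, 4.88% of the 9391 cells that passed. Clustering used log values of counts brought to 10000 in each cell. Claudin and listed junction genes were left out of 2000 variable genes. With 30 principal components and 15 neighbours, Leiden clustering (igraph 0.11.9) at resolution 1 gave 21 clusters. A cluster took the name of its highest-scoring marker list where at least 3 markers were found in 25% or more of its cells, and 1 cluster stayed unnamed. The smooth muscle-like cluster scored nearly as high for pericytes.

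UMIs were summed per class into CPM with exact Poisson intervals. Ratios have exact conditional binomial intervals, and shares of cells Clopper-Pearson intervals, all at 95%. A ratio was tallied as high from 2 upwards and as low from 0.5 downwards, for features whose UMIs in the compared classes reached 30. A floor of 3 UMIs over the class was used for counts of 0. Shares were recomputed after thinning to 2000 UMIs per cell. Named genes were all claudins, the 3 genes most correlated with each member of 200 or more UMIs (candidates with 500 or more), and the 4 highest and 4 lowest junction genes of 100 or more UMIs per comparison, of which 1 is not reported here, and the list of transitional alveolar genes in full for the alveolar type 2-like clusters. The members and gene lists were chosen with earlier results of these data known. Alternatives were a resolution of 2, doublets kept, a filter of 200 genes and 20%, junction genes allowed in clustering, each cell weighing the same, CPM without genes of 1% or more, and no UMI minimum. Leaving out Scgb1a1-rich ciliated-like or Sftpc-rich alveolar type 1-like cells (5% or more of UMIs) was added after seeing the data. Other tools were Python 3.11.15, numpy 2.4.6, scipy 1.17.1, pandas 2.3.3 and matplotlib 3.10.9.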

Additional observations from a re-analysis of the deposited data

How the results depend on the processing

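All values rest on 1 matrix without replicates, so variation between mice cannot be judged, and class names rest on marker lists. No paired analysis was possible because all samples share a single group and no barcode names a sample, and for the same reason no replicate could be left out. Of the 10 counts of members, all 10 stayed within 1.5 times with junction genes allowed in clustering, with the looser cell filter and with each cell weighing the same. For alveolar type 1-like over type 2-like cells, the low count was 2 at resolution 2, 2 with doublets kept and 3 without a UMI minimum, where the high count was 4. For club or secretory-like over ciliated-like cells, the low count was 5 with doublets kept, 5 without a minimum and 0 without abundant genes, where the high count was 2. For mesothelial-like over other mesenchymal cells, the low count was 0 with doublets kept and 2 without a minimum. The ratio turned direction for Cldn7 in mesothelial-like over other mesenchymal cells (2.38, doublets kept). With each cell weighing the same it turned for Cldn10 in epithelial over mesenchymal cells (0.881) and for Cldn18 in mesothelial-like over other mesenchymal cells (0.924). Without abundant genes it turned for Cldn7 in alveolar type 1-like over type 2-like cells (0.878) and for Cldn18 (1.14) and Cldn23 (1.93) in club or secretory-like over ciliated-like cells. With doublets kept, mesothelial-like over epithelial cells, Cldn15 was 285-fold and Cldn1 14.9-fold. Cldn10, club or secretory-like over ciliated-like cells, was 12.8-fold with the looser filter and 14.4-fold with each cell weighing the same. The cause of these changes was not tested.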
